A study of Mus musculus with 4 samples.

Results

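Fibroblasts are the matrix-secreting connective tissue cells of the brain's coverings and vessel walls. They were chosen here cell by cell from raw counts of unique molecular identifiers (UMIs, each standing for 1 captured RNA molecule). A cell was taken when the collagen genes Col1a1, Col1a2 and Col3a1 and the small proteoglycan genes Dcn and Lum summed to at least 5 UMIs with at least 3 of these 5 genes detected. It also had to carry no UMI of the leukocyte gene Ptprc, at most 2 UMIs of the endothelial gene Cldn5, and at most 2 of 6 detected genes of pericytes and smooth muscle (Rgs5, Kcnj8, Abcc9, Vtn, Notch3 and Myh11). By this rule 260 of 55902 kept cells, 0.465%, were fibroblasts. All 5 collagen and proteoglycan genes were detected in 155 of them, 4 in 67 and 3 in 38. At the threshold, 3 cells sat just inside with 5 UMIs, no cell with 3 or more of the genes had 4 UMIs, and 19 cells with at least 5 UMIs stayed outside because they showed 2 of the genes (median 7 UMIs). Since the 5 genes chose the cells, their levels are a description and support nothing below.

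The cells came from the ipsilateral hemisphere of wild-type mice, 14 days after an ischemic stroke. All groups shared the stroke and an implant of hydrogel microspheres (labelled MAPS) placed in the infarct cavity at day 5, and they differed in the extracellular vesicles (EVs) from astrocytes that the microspheres carried. The group labelled MAPS had no EVs, UT EV+MAPS (UT EV below) had vesicles labelled UT, IL-1a TNFa C1q EV+MAPS (IL-1a/TNFa/C1q EV) had vesicles labelled with these 3 proteins, and IL-4 C1q EV+MAPS (IL-4/C1q EV) had vesicles labelled with IL-4 and C1q. Each group was 1 library, and the number of animals pooled in it, their age and their sex are not given in the labels. Differences between libraries therefore have no replicates behind them, and the treatment cannot be told apart from the animals, the dissociation or the run of its library. Intervals are exact 95% intervals and cover counting error only. Where 4 values follow each other below, the order is MAPS, UT EV, then IL-1a/TNFa/C1q EV, then IL-4/C1q EV.

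Fibroblasts of the central nervous system lie in the dura, the arachnoid and the pia, the 3 layers of the meninges, and as a thin sheath around larger vessels inside the brain. In each layer they lay down a different matrix, and arachnoid cells also make a barrier and secrete prostaglandin D synthase into the cerebrospinal fluid. After a stroke, fibroblasts gather in the lesion, where they deposit collagens and form part of the scar around the cavity. They also make retinoic acid, insulin-like growth factor binding proteins and the chemokine Cxcl12, and they respond to interferons and other cytokines.

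Depth differed between the libraries. Kept cells had a median of 4557 UMIs in MAPS and 2480 to 2673.5 in the 3 EV libraries, and fibroblasts had medians of 7030, 4169, 4678.5 and 5576. The smallest barcode of IL-1a/TNFa/C1q EV held 1233 UMIs, whereas the other libraries began at 500. Mitochondrial UMIs were 1.42% of a median kept cell in MAPS and 0.550% to 0.575% in the EV libraries. Pairs of libraries shared 43 to 64 barcodes, and no fibroblast barcode of 1 library was a fibroblast in another. A doublet caller marked 1 of the 260 fibroblasts. The fibroblasts of the libraries summed to 565846, 210226, 285289 and 620162 UMIs. Levels are given as CPM, the UMIs of a gene per 1000000 UMIs of these sums.

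Some defining markers of other cells were at 0 in the fibroblasts, and others were not. Pecam1 was 0 in all 4 libraries, as were Mrc1 and Cd163 of border macrophages. The 5 macrophage markers, Mrc1 and Cd163 among them, still summed to 693, 166, 365 and 126 CPM. At least 1 UMI of these 5 was found in 15 of 65, 10 of 43, 25 of 52 and 42 of 100 fibroblasts. In MAPS 1 cell held 93.4% of that sum, and without that cell it was 46.9 CPM. The 6 mural genes, Cldn5 and Ptprc were used by the rule to leave cells out, so their values, and the part of them in the sums that follow, support nothing. The 6 endothelial markers summed to 854, 1146, 768 and 721 CPM and the 8 mural markers to 647, 1099, 529 and 818 CPM. The 6 microglial markers summed to 765, 176, 403 and 414 CPM, and at least 1 such UMI was found in 56 of 65 MAPS fibroblasts, 17 of 43, 21 of 52 and 49 of 100. The 5 oligodendrocyte markers stood apart in IL-1a/TNFa/C1q EV, at 854, 114, 2233 and 668 CPM, and there 1 cell held 31.9% of them. In MAPS 1 cell of 43091 UMIs, the deepest of all, had 21.7% of its UMIs in choroid plexus markers and only 6 in the 5 fibroblast genes; without it the choroid plexus sum of MAPS was 323 CPM. Cells with at least 1% of their UMIs in the markers of 1 other type numbered 5, 1, 2 and 7, and they were kept except where said.

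Fibroblasts were the largest share of cells in IL-4/C1q EV. They were 65 of 13833 cells (0.470%, 0.363 to 0.599), 43 of 12766 (0.337%, 0.244 to 0.453), 52 of 14978 (0.347%, 0.259 to 0.455) and 100 of 14325 (0.698%, 0.568 to 0.848). The interval of IL-4/C1q EV lay above those of the other 2 EV libraries, and it overlapped that of MAPS. Cells of at least 1000 UMIs were also thinned to 1000 before the rule was applied. The kept cells with fewer, 807, 1278, 0 and 1330 of them, were left out. The shares were then 0.530% (0.412 to 0.670), 0.244% (0.162 to 0.352), 0.207% (0.141 to 0.294) and 0.523% (0.407 to 0.663), so that MAPS and IL-4/C1q EV both lay above the other 2 libraries. The ratio to vascular cells had another order: it was 42.5 fibroblasts per 100 mural and endothelial cells in MAPS and 3.03, 4.04 and 5.74 in the EV libraries. MAPS yielded 133 endothelial cells by a fixed rule, whereas the EV libraries yielded 1246 to 1655.

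**Figure D1:**
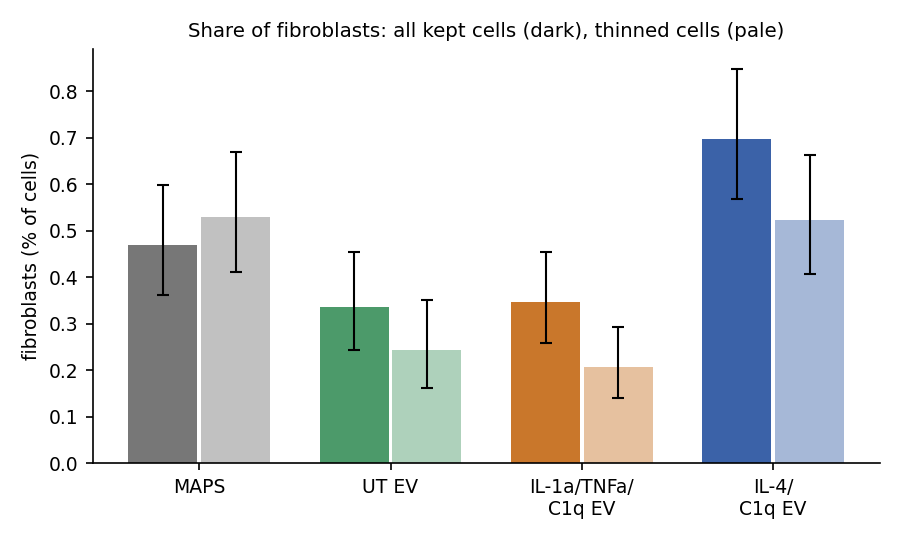
Share of fibroblasts (%, vertical axis) in the 4 libraries, for all kept cells (dark bars) and for cells of at least 1000 UMIs thinned to 1000 (pale bars). Lines are exact 95% counting intervals and there is 1 library per group. IL-4/C1q EV was highest without thinning (0.698%), whereas with thinning MAPS stood at 0.530% and IL-4/C1q EV at 0.523%.

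The 5 genes of the rule were all highest in MAPS fibroblasts. Col1a1, the major chain of type I collagen, stood at 7988, 3301, 1886 and 2917 CPM, and Dcn, which codes for decorin, at 9071, 4395, 4658 and 4479 CPM. Col1a1 was lowest in IL-1a/TNFa/C1q EV, while Dcn differed little over the EV libraries. In UT EV 38.2% of the Col1a1 UMIs lay in 1 cell, and 1 cell of 19935 UMIs held 23.8% of all UMIs of the 5 genes.

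Some genes outside the rule had a large part of their UMIs in these few cells. Of all UMIs of Cpz, a secreted carboxypeptidase, fibroblasts held 64.4%, 90.6%, 97.4% and 89.3% in the 4 libraries, although they were under 1% of the cells. The median share was 87.6% for the prostaglandin D2 receptor gene Ptgdr, 84.3% for the imprinted RNA H19, 79.2% for Sfrp4, a secreted WNT antagonist, and 77.4% for Cemip, which takes part in hyaluronan breakdown. The other genes with median shares of 70.0% or more were Aox3, Inmt, Mfap4, Mfap5, Omd, Fam180a, Col5a1, Col12a1, Itih2 and Crabp2. Single libraries could lie far lower, as in MAPS with 36.4% for Omd and 34.5% for Crabp2. Cemip was higher in IL-4/C1q EV (348 CPM) and MAPS (458 CPM) than in UT EV (152 CPM) or in IL-1a/TNFa/C1q EV (123 CPM), with a ratio of IL-4/C1q EV to UT EV of 2.29 (1.57 to 3.43). Cpz, at 221, 138, 133 and 121 CPM, differed little between the EV libraries.

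Interferon-response genes set the fibroblasts of IL-4/C1q EV apart. Interferons are secreted antiviral signals, and the genes they switch on include ubiquitin-like Isg15, the RNA-binding Ifit proteins, the virus-tethering membrane protein Bst2 and the membrane protein Ifitm3. Of 2493 genes with at least 100 UMIs, 9 were higher in IL-4/C1q EV than in any other library, and by an amount whose interval against the nearest one lay wholly beyond 1.5-fold. Of these 9 genes 6 were members of the interferon list (Isg15, Ifit3b, Ifit3, Bst2, Ifit1 and Ifitm3), and the others were Clec3b, Plac8 and Ube2l6, the last an enzyme of the Isg15 conjugation pathway.

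The starts of these genes are shown because an interferon-stimulated response element is read at promoters of this family. The core of that element, GAAA, then 2 bases of any kind, then GAAA, was searched on both strands (where the other reads TTTC, 2 bases and TTTC) from 250 bases before to 50 after each RefSeq start in build GRCm38.p6. It occurred in 943 of 27025 promoters, 3.49%, and in 11 of the 18 interferon-list genes with a promoter in the table, 61.1%. Printed 5′ to 3′ on the strand of the gene, with every match in capitals, are parts of the windows of Isg15 (chr4:156200835-156200936, minus strand, 3 matches, overlapping each other), Ifit3 (chr19:34583333-34583456, plus strand, 2 matches), Ifit1 (chr19:34640745-34640853, plus strand, 2 matches) and Bst2 (chr8:71537547-71537642, minus strand, 2 matches), all upstream of the start.
Isg15: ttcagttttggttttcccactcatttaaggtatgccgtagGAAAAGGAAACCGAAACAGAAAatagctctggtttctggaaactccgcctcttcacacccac
Ifit3: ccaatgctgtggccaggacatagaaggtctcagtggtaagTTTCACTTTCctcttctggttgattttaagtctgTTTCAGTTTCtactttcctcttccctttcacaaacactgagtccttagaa
Ifit1: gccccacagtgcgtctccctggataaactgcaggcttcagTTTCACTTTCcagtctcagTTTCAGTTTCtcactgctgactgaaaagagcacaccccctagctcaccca
Bst2: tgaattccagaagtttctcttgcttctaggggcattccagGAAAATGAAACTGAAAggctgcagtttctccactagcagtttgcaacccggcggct
The same 124 bases as in Ifit3 stood before Ifit3b, a near-identical copy at 34607729 to 34607852 on the same chromosome, so reads of the 2 genes may have been split between them. No match was found in the windows of Ifit2, Irf7, Irf9, Oasl2, Ifi44, Cmpk2 and Xaf1.

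Isg15 (ENSMUSG00000035692) stood at 166, 547, 280 and 2085 CPM, from 94, 115, 80 and 1293 UMIs. IL-4/C1q EV was 3.81-fold above UT EV (3.15 to 4.65) and 7.44-fold above IL-1a/TNFa/C1q EV (5.93 to 9.44). Of the UMIs in IL-4/C1q EV, 4.87% came from the cell with most of them, so the difference did not lie in 1 fibroblast. The median fibroblast had 0, 1.0, 1.97 and 14.8 Isg15 UMIs per 10000, and no Isg15 UMI was seen in 48 of 65, 21 of 43, 20 of 52 and 18 of 100 fibroblasts. Fibroblasts of at least 1000 UMIs, 63, 41, 52 and 92 of them, were also thinned to 1000. Isg15 was then seen in 14.3%, 34.1%, 23.1% and 64.1% of these.

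Bst2 ran in the same order as Isg15, at 207, 733, 498 and 1920 CPM. Its ratio of IL-4/C1q EV to UT EV was 2.62 (2.21 to 3.12), and the median fibroblast had 0, 3.46, 3.62 and 16.6 UMIs per 10000. Ifit3 stood at 115, 162, 73.6 and 543 CPM, 3.36-fold above UT EV (2.36 to 4.93) in IL-4/C1q EV. Ifit1, from few UMIs outside IL-4/C1q EV, stood at 54.8, 71.4, 14.0 and 239 CPM. Ifitm3 was abundant everywhere, at 1364, 3320, 3460 and 6034 CPM, and IL-4/C1q EV exceeded UT EV by a smaller ratio, 1.82 (1.68 to 1.97). The ratio to IL-1a/TNFa/C1q EV was 1.74 (1.63 to 1.87). The transcription factor gene Irf7 was low, at 31.8, 28.5, 21.0 and 83.8 CPM, and its ratio of IL-4/C1q EV to UT EV had a wide interval, 2.94 (1.26 to 8.37). In each of these genes IL-4/C1q EV was the highest of the 4 libraries.

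**Figure D2:**
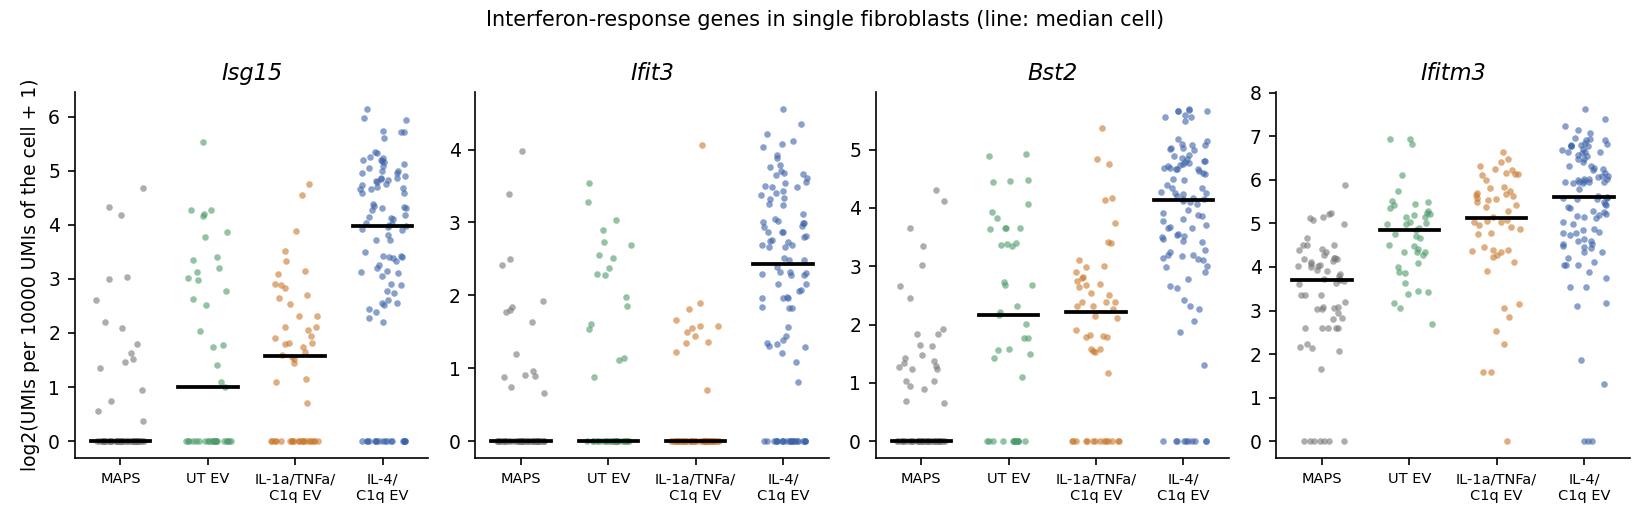
Each point is 1 fibroblast, the vertical axis is log2 of its UMIs of Isg15, Ifit3, Bst2 or Ifitm3 per 10000 UMIs plus 1, and the black line is the median fibroblast of the library. Medians of Isg15 were 0, 1.0, 1.97 and 14.8 UMIs per 10000 before the log; IL-4/C1q EV had the highest median of all 4 genes, and 18 of its 100 fibroblasts had no Isg15 UMI.

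Over the whole list of 25 interferon-response genes, 17 had at least 30 UMIs over the 2 libraries of IL-4/C1q EV and UT EV. All 17 were higher in IL-4/C1q EV, 12 of them more than 2-fold, and the median log2 ratio was 1.26. Among all 3555 genes measured in that comparison, 6.84% were more than 2-fold higher and 2.53% more than 2-fold lower, with a median of 0.06. By any amount, 55.3% of those 3555 genes were higher in IL-4/C1q EV. Against IL-1a/TNFa/C1q EV, again all 17 measured members were higher, 14 of them more than 2-fold, with a median of 1.97; over all 3766 genes measured there, 6.48% were more than 2-fold higher and 3.27% more than 2-fold lower. IL-1a/TNFa/C1q EV against UT EV gave a median of -0.41, with 2 of 6 measured members higher and 1 more than 2-fold lower, where 4.79% of all 2295 genes were more than 2-fold higher and 4.75% more than 2-fold lower. These 3 comparisons share libraries and are not independent. Summed over the list, the level was 3227, 6793, 5941 and 13887 CPM.

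The interferon-inducible GTPases, which attack the vacuoles of intracellular pathogens, were also higher in IL-4/C1q EV. All 4 measured members were higher than in UT EV and 3 of them more than 2-fold, with a median of 1.47, and all 5 measured against IL-1a/TNFa/C1q EV were higher, with a median of 1.24. Over all genes, 6.84% were more than 2-fold higher than in UT EV, and 52.8% were higher by any amount than in IL-1a/TNFa/C1q EV. Iigp1 stood at 115, 71.4, 80.6 and 190 CPM, 2.67-fold above UT EV (1.55 to 4.92), and MAPS lay between. For UT EV over MAPS 0 of 4 measured members were higher, in a comparison whose median over all genes was -0.61 and in which 37.2% of all genes were more than 2-fold lower.

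Other cells of the same libraries also had the interferon list higher in IL-4/C1q EV than in UT EV. The median log2 ratio was 1.79 in mural cells (8 of 8 measured members higher), 0.91 in endothelial cells (24 of 25), 1.13 in astrocytes (22 of 23) and 1.66 in microglia (24 of 25), beside 1.26 in fibroblasts. Over all genes measured in those cells the medians were -0.11, -0.03, 0.04 and -0.05, with 40.2%, 46.3%, 54.2% and 41.5% of genes higher. For IL-1a/TNFa/C1q EV over UT EV, the list had medians of 0.04 in mural cells (2 of 4 higher), -1.23 in endothelial cells (1 of 25), 0.91 in astrocytes (19 of 21) and -0.60 in microglia (0 of 25), beside -0.41 in fibroblasts; the medians over all genes were 0.08, -0.08, -0.04 and -0.17 in the other cells. Isg15 stood at 43.9, 148, 97.4 and 478 CPM in microglia, below its level in fibroblasts in every library, and at 124, 1563, 565 and 2596 CPM in endothelial cells, above it in the 3 EV libraries. Microglial marker sums in the fibroblasts were 765, 176, 403 and 414 CPM, and the part of microglial RNA in the result was not tested. When cells with 2 detected myeloid markers were left out, 14, 35, 37 and 65 fibroblasts remained.

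Of the other genes that were highest in IL-4/C1q EV, Clec3b stood out by its level. Clec3b codes for tetranectin, a secreted plasminogen-binding protein, and stood at 79.5, 314, 270 and 813 CPM, 2.59-fold above UT EV (2.0 to 3.40). It was seen in 43.0% of IL-4/C1q EV fibroblasts and 41.9% of those of UT EV, while its level there was higher; the microglia of the 4 libraries held 0.704 to 2.88 CPM. Plac8 stood at 51.3, 71.4, 70.1 and 200 CPM. Emb, which codes for the membrane glycoprotein embigin, was the only gene lower in IL-4/C1q EV than in each other library by the same rule, at 217, 247, 203 and 80.6 CPM, 0.397 of its level in IL-1a/TNFa/C1q EV (0.266 to 0.589).

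Genes of the pia, arachnoid and dura were found in each library. The pial and perivascular list held Cxcl12, Fbln1, Col15a1 and 5 others, and at least 3 of its 8 genes were seen in 45 of 65 fibroblasts of MAPS (69.2%), 16 of 43 (37.2%), 11 of 52 (21.2%) and 36 of 100 (36%). After thinning to 1000 UMIs the shares were 20.6%, 7.32%, 0% and 5.43%, in which MAPS was highest and IL-1a/TNFa/C1q EV lowest, as before. By level, the list was not lower in IL-1a/TNFa/C1q EV than in UT EV. The median log2 ratio was 0.04, the same as over all genes. Of 3 measured members 2 were higher (54.3% of all genes), and 0 were more than 2-fold lower. At least 3 of the 6 dural genes were seen after thinning in 12.7%, 26.8%, 38.5% and 10.9% of fibroblasts, highest in IL-1a/TNFa/C1q EV. Cdh1, a gene of the arachnoid barrier, had no UMI in any fibroblast.

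Cxcl12, a chemokine that holds and attracts leukocytes and progenitors, was highest in MAPS and IL-4/C1q EV, at 1225, 737, 634 and 1293 CPM. IL-4/C1q EV was 1.75-fold above UT EV (1.48 to 2.10) and 2.04-fold above IL-1a/TNFa/C1q EV (1.73 to 2.41). Col15a1, a basement-membrane collagen of perivascular fibroblasts, was at 394, 109, 10.5 and 43.5 CPM, from 223, 23, 3 and 27 UMIs. IL-1a/TNFa/C1q EV had 0.0961 of the level of UT EV (0.0185 to 0.318), from those 3 UMIs.

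The dural genes Igfbp6 and Fxyd5 were highest in IL-1a/TNFa/C1q EV, and Alpl was not. Igfbp6 stood at 226, 495, 1020 and 413 CPM, 2.06-fold above UT EV (1.64 to 2.60), and it was seen in 67.3% of IL-1a/TNFa/C1q EV fibroblasts and 30.8% to 37.2% of the others; microglia held 2.59 to 4.23 CPM of it. Fxyd5, a subunit that modulates the sodium pump, stood at 640, 1146, 2103 and 856 CPM, 1.83-fold above UT EV (1.58 to 2.14). Mgp, which codes for matrix Gla protein, an inhibitor of calcification, stood at 9338, 6674, 9429 and 4317 CPM and was lowest in IL-4/C1q EV, with a ratio to IL-1a/TNFa/C1q EV of 0.458 (0.434 to 0.483). Of the 5 measured dural genes, 4 were more than 2-fold lower in IL-4/C1q EV than in IL-1a/TNFa/C1q EV, with a median of -1.13, whereas 4 of 5 were higher in IL-1a/TNFa/C1q EV than in UT EV, 1 of them more than 2-fold, with a median of 0.50. The other member, Alpl, which codes for alkaline phosphatase, was more than 2-fold lower there and highest in MAPS, at 201, 128, 56.1 and 27.4 CPM. Over all genes, 3.27% were more than 2-fold lower in IL-4/C1q EV than in IL-1a/TNFa/C1q EV. For IL-1a/TNFa/C1q EV over UT EV, 4.79% were more than 2-fold higher and 4.75% more than 2-fold lower.

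Ptgds (ENSMUSG00000015090), which codes for prostaglandin D synthase and marks arachnoid cells, lay mostly in a minority of the fibroblasts. Its level was 4013, 69382, 35886 and 49195 CPM, highest in UT EV and lowest in MAPS. Cells with more than 1% of their UMIs in Ptgds numbered 2 of 65, 14 of 43, 15 of 52 and 24 of 100, and they held 87.7%, 99.3%, 99.0% and 98.5% of its UMIs. In MAPS 78.2% lay in 1 cell, and without that cell the level was 891 CPM. The other MAPS cell above 1%, of 7775 UMIs, had 5.03% of its UMIs in the oligodendrocyte markers. Whether the cells above 1% were arachnoid cells was not tested. Microglia held 454, 899, 860 and 713 CPM of Ptgds. The share of high cells was 32.6%, 28.8% and 24.0% in the EV libraries, which is not the order of their levels.

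**Figure D3:**
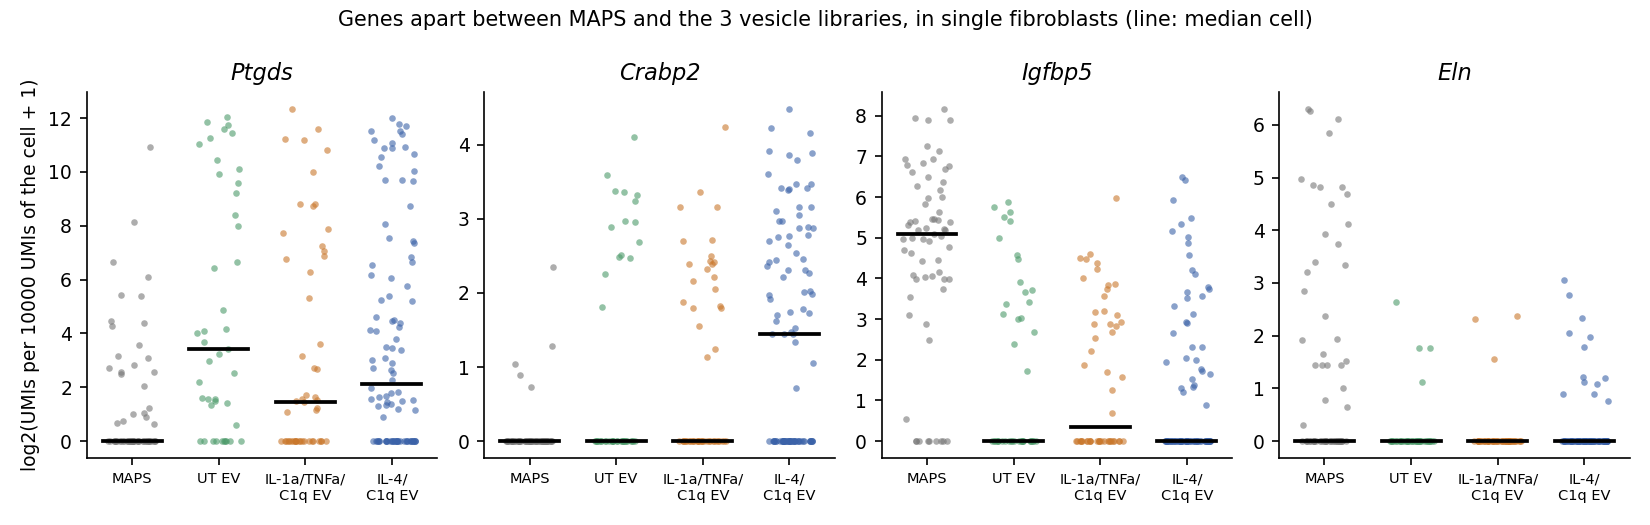
Each point is 1 fibroblast, the vertical axis is log2 of its UMIs of Ptgds, Crabp2, Igfbp5 or Eln per 10000 UMIs plus 1, and the black line is the median fibroblast. Ptgds ranged widely among the fibroblasts of the EV libraries, with cells at low, middle and high levels, and MAPS had 2 cells above 1% of UMIs; Igfbp5 and Eln were highest in MAPS, where the median fibroblast had 32.9 Igfbp5 UMIs per 10000.

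Cells with at least 3 of the 8 arachnoid genes other than Ptgds numbered 54, and they form a range and not a type: 34 cells had 3 of the genes, 16 had 4 and 4 had 5, while 59 cells just below had 2. They were 5, 7, 9 and 33 cells in the 4 libraries, and they were deeper than the other 206 fibroblasts (median 8040 against 4419.5 UMIs). Among genes not used for the cut, Ptgds was at 61276 CPM in them and 22019 CPM in the rest, Igfbp2 at 3207 and 1355 CPM, and Clec3b at 824 and 225 CPM. Genes lower in them were Col15a1, at 3.82 against 237 CPM, Igfbp5, at 633 against 3023 CPM, and Pdgfra, at 107 against 339 CPM. Since 33 of the 54 cells came from IL-4/C1q EV, these pooled levels also hold the differences between libraries, and depth was not matched. In UT EV, Ptgds was at 134746 CPM in the cells of the cut and 42528 CPM in the rest. It ran the other way in MAPS (57.9 against 4726 CPM) and IL-1a/TNFa/C1q EV (15415 against 40950 CPM). Clec3b was at 0 against 93.8 CPM in MAPS, 376 against 289 in UT EV, and 283 against 267 in IL-1a/TNFa/C1q EV. Within IL-4/C1q EV alone, Ptgds was at 71841 CPM in the 33 cells and 25040 in the other 67, Clec3b at 1228 and 370, and Isg15 at 2318 and 1836, so that Isg15 was high on both sides of the cut. The arachnoid gene Crabp2, which codes for a retinoic acid carrier, stood at 17.7, 314, 231 and 458 CPM over all fibroblasts, with 0.127 to 0.249 CPM in microglia.

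Transporter genes of the meninges were lowest in IL-1a/TNFa/C1q EV. Slc6a13, a GABA and taurine transporter of leptomeningeal fibroblasts, stood at 361, 352, 87.6 and 185 CPM, and IL-1a/TNFa/C1q EV had 0.249 of the level of UT EV (0.152 to 0.396). Slc7a11, the cystine transporter, stood at 657, 599, 294 and 700 CPM, and IL-4/C1q EV was 2.38-fold above IL-1a/TNFa/C1q EV (1.88 to 3.04). Slc6a20a, a proline transporter, stood at 177, 114, 31.5 and 83.8 CPM. All 3 measured members were more than 2-fold lower in IL-1a/TNFa/C1q EV than in UT EV, where 4.75% of all genes were. Further, 6 of 6 were higher in IL-4/C1q EV than in IL-1a/TNFa/C1q EV, 5 of them more than 2-fold. In that comparison 52.8% of all genes were higher, and 6.48% more than 2-fold. Between IL-4/C1q EV and UT EV the median of the list was 0.18 with 4 of 6 members higher, where 55.3% of all genes were higher.

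Several collagens and other matrix genes were also lowest in IL-1a/TNFa/C1q EV. Col4a1 and Col4a2 code for the 2 main chains of type IV collagen, the network of basement membranes. Col4a1 (ENSMUSG00000031502) stood at 691, 366, 59.6 and 226 CPM, from 391, 77, 17 and 140 UMIs, and was seen in 78.5%, 46.5%, 25% and 54.0% of the fibroblasts; microglia held 2.04 to 5.21 CPM. IL-4/C1q EV was 3.79-fold above IL-1a/TNFa/C1q EV (2.28 to 6.69), and IL-1a/TNFa/C1q EV had 0.163 of the level of UT EV (0.0902 to 0.278). Col4a2 stood at 500, 166, 38.6 and 137 CPM. Col4a1 was highest in MAPS and lowest in IL-1a/TNFa/C1q EV, and so was Col4a2.

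Of 2493 genes, 9 were lower in IL-1a/TNFa/C1q EV than in each other library by the rule used above. Besides Col4a1 and Col4a2 they included the fibrillar collagen gene Col5a2 (449, 290, 87.6 and 208 CPM), the matricellular genes Postn (353, 152, 31.5 and 96.7 CPM) and Ccn1, the intermediate filament gene Vim (682, 595, 200 and 590 CPM), Pmepa1 and Slc7a11. In UT EV 71.9% of the Postn UMIs lay in 1 fibroblast. Apod, which codes for the lipid carrier apolipoprotein D, was not among the 9 but was also lowest there, at 10273, 5770, 1952 and 2678 CPM.

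By the same rule 15 genes were higher in IL-1a/TNFa/C1q EV. They included C1qa, C1qb, C1qc, Tyrobp, Fcer1g, Trem2 and Ccl4, genes known from microglia: C1qb stood at 368, 200, 1539 and 450 CPM in fibroblasts and at 5559, 11932, 13220 and 11714 CPM in microglia. Car2, Stmn1, Septin4 and Ppp1r14a were also among them; Car2 was at 113, 4.76, 305 and 88.7 CPM, and the oligodendrocyte markers summed to 2233 CPM in that library. The part of cells of other types in these values was not tested. The remaining genes were Igfbp6, Fxyd5, Cd9 and Arhgdib.

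By lists, type I, III, V and XI chains other than those of the rule gave 3 measured genes (Col5a1, Col5a2 and Col11a1). All 3 were lower in IL-1a/TNFa/C1q EV than in UT EV, with a median log2 ratio of -1.55 (-0.81 as a mean of per-cell CPM), and all 3 were higher in IL-4/C1q EV than in IL-1a/TNFa/C1q EV, with a median of 0.67. Of the other collagens 9 of 9 were lower in IL-1a/TNFa/C1q EV than in UT EV, 5 of them more than 2-fold, with a median of -1.07, where 4.75% of all genes were more than 2-fold lower. That median was -0.69 when the cell with most UMIs of each gene was left out. Further, 11 of 13 were higher in IL-4/C1q EV than in IL-1a/TNFa/C1q EV, 6 of them more than 2-fold, where 6.48% of all genes were. IL-4/C1q EV stood below UT EV in 9 of 14 other collagens, 5 of them more than 2-fold (2.53% of all genes), with a median of -0.66. For glycoproteins, laminins and elastic-fibre genes the medians were -0.56 for IL-1a/TNFa/C1q EV over UT EV (4 of 19 higher) and 0.49 when IL-4/C1q EV was set against IL-1a/TNFa/C1q EV, where 17 of 23 were higher, 8 of them more than 2-fold. Proteoglycans gave -0.70 (0 of 5 higher) and 0.44 (6 of 6 higher), but the first median was 0.45 with cells thinned to 1000 UMIs, so its direction turned. Over all genes, 54.3% were higher in IL-1a/TNFa/C1q EV than in UT EV, and 52.8% in IL-4/C1q EV than in IL-1a/TNFa/C1q EV. The genes that chose the cells were left out of these lists.

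Among the single matrix genes, Sparc, a collagen-binding glycoprotein, stood at 6162, 3563, 3330 and 5558 CPM, and IL-4/C1q EV was 1.67-fold (1.55 to 1.8) above IL-1a/TNFa/C1q EV. Col18a1, the source of endostatin, stood at 543, 124, 77.1 and 232 CPM. Lox, which cross-links collagen, stood at 189, 105, 45.6 and 181 CPM, and IL-4/C1q EV was 3.96-fold (2.23 to 7.67) above IL-1a/TNFa/C1q EV. For the collagen-processing list as a whole the median of that comparison was 0.24, and for IL-4/C1q EV over UT EV it was -0.10. The protease and inhibitor list gave 0.46 and -0.29. Timp2, an inhibitor of matrix metalloproteinases, stood at 677, 942, 729 and 587 CPM.

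**Figure D4:**
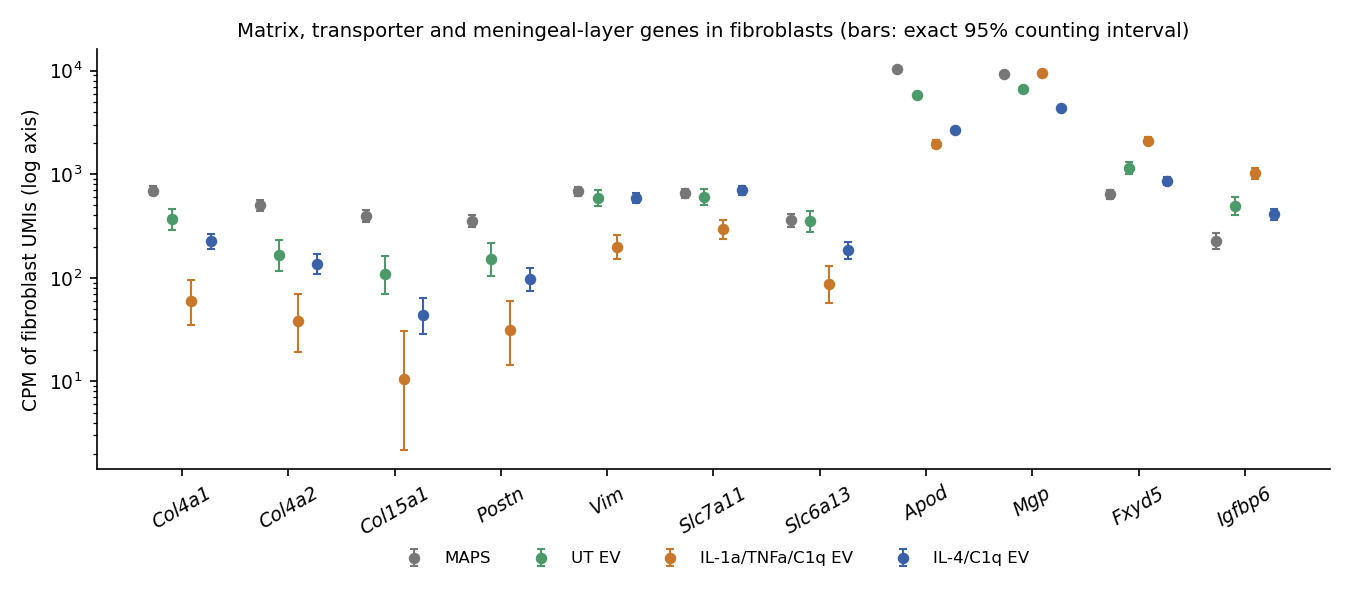
Levels of 11 matrix, transporter and meningeal-layer genes in the summed fibroblasts of each library (CPM, log axis), with exact 95% counting intervals. IL-1a/TNFa/C1q EV was lowest for Col4a1 (59.6 CPM), Col4a2, Col15a1, Postn, Vim, Slc7a11, Slc6a13 and Apod, and highest for Igfbp6 (1020 CPM) and Fxyd5 (2103 CPM).

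Myofibroblasts are the fibroblasts of healing wounds, and 13 of their genes, contractile ones among them, were listed. At least 1 of these genes was seen in 62 of 65, 39 of 43, 48 of 52 and 93 of 100 fibroblasts, while Acta2 lay largely in few cells. At least 3 of the 13 genes were seen in 43 of 65, 19 of 43, 36 of 52 and 67 of 100 fibroblasts. Acta2, which codes for smooth muscle actin, stood at 15.9, 300, 14.0 and 203 CPM, but 93.7% of its UMIs in UT EV and 69.8% in IL-4/C1q EV lay in 1 cell each. Tagln, which codes for transgelin, stood at 12.4, 571, 200 and 539 CPM; 80.8% of it in UT EV lay in 1 cell, and without the cell with most of it the levels were 5.36, 121, 149 and 383 CPM. No Tagln UMI was seen in 62 of 65, 35 of 43, 36 of 52 and 68 of 100 fibroblasts. Over the whole list the cell with most held 6.82%, 59.2%, 6.86% and 15.8% of the UMIs, and the summed level of UT EV was 3144 CPM with that cell and 1419 CPM without it, next to 1942 CPM in MAPS, 1532 CPM with IL-1a/TNFa/C1q EV, and 2865 CPM with IL-4/C1q EV. Tpm1, a tropomyosin, stood at 262, 813, 421 and 859 CPM, and IL-4/C1q EV was 2.04-fold (1.67 to 2.51) above IL-1a/TNFa/C1q EV. After thinning, at least 3 myofibroblast genes were seen in 15.9%, 4.88%, 13.5% and 22.8% of fibroblasts.

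**Figure D5:**
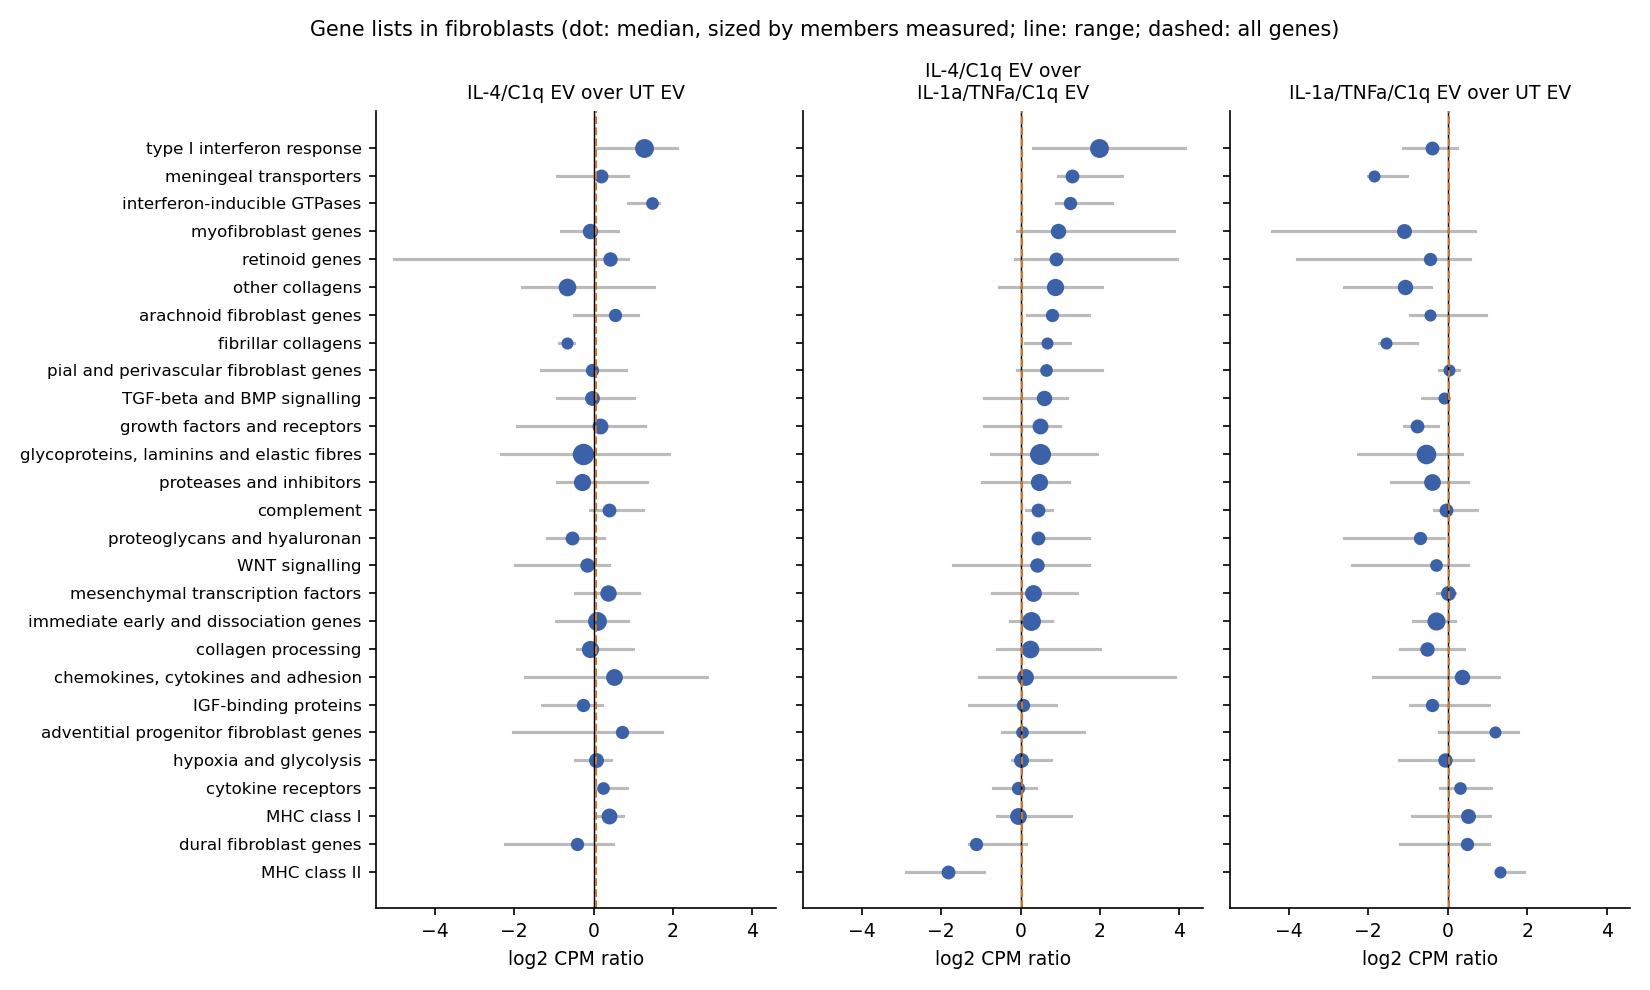
Median log2 CPM ratio (horizontal axis) of each gene list in fibroblasts for 3 comparisons of EV libraries; dots are sized by the number of members measured, grey lines span the lowest to the highest member, and the dashed line is the median of all genes measured. For IL-4/C1q EV over IL-1a/TNFa/C1q EV, the interferon list had the highest median of the lists drawn (1.97), and MHC class II had the lowest (-1.83).

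Among growth factors and their receptors, Pdgfra and Pdgfrb mark fibroblasts and receive platelet-derived growth factor. Pdgfra stood at 541, 124, 105 and 139 CPM and Pdgfrb at 286, 162, 133 and 227 CPM. Fgfr1, a fibroblast growth factor receptor, stood at 477, 133, 63.1 and 126 CPM, and IL-1a/TNFa/C1q EV had 0.474 of the level of UT EV (0.247 to 0.887). Gas6, the ligand of the Axl and Mertk receptors, was lowest in IL-4/C1q EV, at 196, 147, 73.6 and 38.7 CPM. Of the measured members, 0 of 6 were higher in IL-1a/TNFa/C1q EV than in UT EV (54.3% of all genes), with a median of -0.76. Against IL-1a/TNFa/C1q EV, 9 of 10 were higher in IL-4/C1q EV (52.8% of all genes), with a median of 0.50. Between IL-4/C1q EV and UT EV the median was 0.17 with 6 of 10 higher, near the 55.3% of all genes that were higher.

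The insulin-like growth factor binding proteins, which carry and hold back IGF, differed in direction. Igfbp5 (ENSMUSG00000026185) stood at 5767, 890, 554 and 360 CPM and Igfbp2 at 1181, 2688, 1395 and 2609 CPM. The ratio of IL-4/C1q EV to UT EV was 0.404 for Igfbp5 (0.331 to 0.494) and 0.971 for Igfbp2 (0.882 to 1.07). In UT EV 32.6% of the Igfbp2 UMIs lay in 1 cell. Igfbp7 stood at 940, 2531, 1917 and 2106 CPM. So MAPS was highest for Igfbp5 and lowest for Igfbp2 and Igfbp7.

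The signals of the TGF-beta and BMP family gave a median of -0.03 for IL-4/C1q EV over UT EV. Set against IL-1a/TNFa/C1q EV, IL-4/C1q EV had a median of 0.60, and 6 of 9 signalling genes were higher, where 52.8% of all genes were. Fstl1, a secreted follistatin-like protein, stood at 795, 381, 242 and 447 CPM, and Tgfbr2, a TGF-beta receptor, at 232, 85.6, 80.6 and 82.2 CPM. WNT genes gave medians of -0.17 and 0.42. Rspo3, a secreted enhancer of WNT signals, was lower in IL-4/C1q EV than in both other EV libraries, at 21.2, 152, 158 and 48.4 CPM, with a ratio to UT EV of 0.318 (0.187 to 0.540). Of retinoid genes, Rbp4, which codes for the retinol carrier of blood, stood at 5.30, 628, 45.6 and 19.3 CPM, but 70.5% of it in UT EV came from 1 cell. Transcription factors of the mesenchyme gave a median of 0.37 for IL-4/C1q EV over UT EV, with 8 of 11 higher (55.3% of all genes). Foxd1 stood at 383, 285, 322 and 308 CPM.

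RNA of receptors for IL-1, TNF and IL-4, which are among the proteins in the group names, was found in the fibroblasts. The part of RNA from other cells in these values was not tested. The type 1 interleukin 1 receptor gene Il1r1 stood at 44.2, 28.5, 10.5 and 30.6 CPM, the TNF receptor gene Tnfrsf1a at 194, 80.9, 70.1 and 82.2 CPM, and the IL-4 receptor gene Il4ra at 15.9, 4.76, 7.01 and 8.06 CPM, from 9, 1, 2 and 5 UMIs. Of the 10 genes of the IL-4 and IL-13 response list, only Socs1 had 30 UMIs over IL-4/C1q EV and UT EV, and it stood at 65.4, 52.3, 31.5 and 79.0 CPM. Arg1 had at most 2 UMIs in any library. The list summed to 322, 205, 116 and 169 CPM, so a response of these genes was not detectable at this depth. The interferon receptor gene Ifnar2 stood at 103, 186, 207 and 198 CPM, and Ifnar1 stood at 61.9, 28.5, 28 and 33.9 CPM.

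Chemokines and adhesion genes gave a median of 0.52 for IL-4/C1q EV over UT EV, with 9 of 12 higher (55.3% of all genes). Cxcl10, an interferon-induced T cell attractant, stood at 170, 80.9, 66.6 and 273 CPM, 3.37-fold above UT EV in IL-4/C1q EV (2.04 to 5.92), but microglia held 152, 215, 217 and 234 CPM of it and 23.7% of the IL-4/C1q EV UMIs lay in 1 fibroblast. Cxcl5, a neutrophil attractant, stood at 26.5, 14.3, 7.01 and 103 CPM, from 15, 3, 2 and 64 UMIs; it was seen in 14.0% of IL-4/C1q EV fibroblasts, and its ratio to UT EV was 7.23 (2.37 to 36). Ccl2, a monocyte attractant, stood at 311, 233, 63.1 and 70.9 CPM, with 60.2% of the MAPS UMIs in 1 cell. Icam1 (316, 157, 235 and 256 CPM) and Vcam1 (267, 162, 214 and 181 CPM), which leukocytes adhere to, differed less.

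Antigen presentation genes split by class. All 10 measured MHC class I genes were higher in IL-4/C1q EV than in UT EV, with a median of 0.40, none of them more than 2-fold. Also, 6 of 8 were higher in IL-1a/TNFa/C1q EV than in UT EV, with a median of 0.52. Over all genes, 55.3% were higher in the first comparison and 54.3% in the second. H2-K1 stood at 696, 323, 519 and 497 CPM, 1.54-fold above UT EV in IL-4/C1q EV (1.18 to 2.03). MHC class II genes were highest in IL-1a/TNFa/C1q EV: the invariant chain gene Cd74 stood at 143, 162, 617 and 83.8 CPM, and 0 of 6 measured members were higher in IL-4/C1q EV than in IL-1a/TNFa/C1q EV, 5 of them more than 2-fold lower. Over all genes of that comparison, 3.27% were more than 2-fold lower. Cd74 stood at 757, 1964, 2441 and 1229 CPM in microglia, 33.5% of it in IL-1a/TNFa/C1q EV fibroblasts lay in 1 cell, and the part of myeloid RNA in that sum was not tested. Complement genes were higher in IL-4/C1q EV than in UT EV in 5 of 6 cases, with a median of 0.39. In that comparison 55.3% of all genes were higher. Of the complement genes, C4b stood at 230, 128, 214 and 305 CPM.

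Dividing fibroblasts were few. Mki67, a gene of dividing cells, had 4 UMIs in 1 fibroblast of IL-4/C1q EV and none in the 3 other libraries. The 15 proliferation genes summed to 101, 109, 407 and 426 CPM, and 1 cell held 66.4% of that sum in IL-1a/TNFa/C1q EV, against 72.3% for IL-4/C1q EV. Without the cell with most of it the sums were 88.9, 99.2, 139 and 120 CPM. Immediate early genes, which enzymatic dissociation can switch on, gave a median of 0.07 for IL-4/C1q EV over UT EV, and of 0.26 where IL-1a/TNFa/C1q EV was the denominator, and Fos stood at 3632, 2107, 1609 and 1929 CPM. Hypoxia and glycolysis genes gave medians of 0.07 and 0.00, and Ldha stood at 290, 333, 270 and 334 CPM.

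MAPS differed from the EV libraries over the whole transcriptome, so single genes have to be read against that shift. Of 4513 genes measured in UT EV and MAPS fibroblasts, 13.3% were more than 2-fold higher and 37.2% more than 2-fold lower in UT EV, with a median log2 ratio of -0.61. By any amount, 34.1% were higher in UT EV. With a scaling that assumes most genes alike (TMM) the median was about 0, and 1152 genes were more than 2-fold higher and 874 lower. By the rule of intervals beyond 1.5-fold, 257 genes were higher and 293 lower in MAPS than in each EV library, against 9 and 1 for IL-4/C1q EV and 3 and 2 for UT EV. MAPS fibroblasts were also the deepest and had the most mitochondrial UMIs, a median of 2.04% against 0.650% to 0.781% in the EV libraries.

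The genes highest in MAPS included elastic-fibre and stress genes. Eln, which codes for elastin, stood at 1089, 19.0, 10.5 and 29.0 CPM, from 616, 4, 3 and 18 UMIs, and was 37.5-fold above the nearest library (23.5 to 63.7). It was seen in 46.2% of MAPS fibroblasts and in 5.77% to 13% of the others, with 23.2% of its UMIs in 1 cell. Loxl1, which cross-links elastin, followed at 475, 33.3, 45.6 and 66.1 CPM, 7.19-fold above the nearest library (5.16 to 10.2). Igfbp5 was 6.48-fold above UT EV (5.59 to 7.55). The prostaglandin synthase gene Ptgs2 stood at 173, 9.51, 0 and 17.7 CPM and the heat shock gene Hspa1a at 1039, 166, 137 and 126 CPM.

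The genes lowest in MAPS were Ptgds, Crabp2, the ribosomal RNA gene Rn18s-rs5 and the S100 gene S100a10. S100a10 stood at 134, 866, 880 and 740 CPM, 6.45-fold higher in UT EV than in MAPS (4.91 to 8.54). Crabp2 was 17.8-fold higher in UT EV (9.08 to 38.8), from 10 UMIs in MAPS. For the interferon list the median of UT EV over MAPS was 0.27, with 9 of 16 higher, 5 more than 2-fold higher and 3 more than 2-fold lower, where the median of all genes was -0.61; with no minimum of UMIs it was -0.16, and with TMM factors 0.88. Bst2 was 3.54-fold higher in UT EV than in MAPS (2.77 to 4.54) and Isg15 3.29-fold (2.49 to 4.37). Of the matrix lists, 12 of 16 other collagens and 16 of 27 glycoproteins, laminins and elastic-fibre genes were more than 2-fold lower in UT EV. The medians were -1.63 and -1.21, where 37.2% of all genes were more than 2-fold lower. Transcription factors of the mesenchyme were lower in UT EV in 13 of 13 cases, 7 more than 2-fold, and among them Foxc1 stood at 458, 95.1, 98.1 and 129 CPM. The myofibroblast list went the other way, with 6 of 9 more than 2-fold higher in UT EV, where 1 cell held 59.2% of its UMIs.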

How the data were processed

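Each of the 4 deposited matrices gives unnormalized UMI counts for 55357 genes by barcode. Cell Ranger is version 8.0.1 per the file headers and 7.0.0 per the submitters' processing notes, which also name bcl2fastq 5.0.1, Seurat 4.1.0 and build GRCm39; the files do not settle which version made the counts. Enzymatic digestion (collagenase IV with papain and DNase I) and dead cell removal came before 10x 3′ v3 libraries, per the labels' protocols. Capture of the 3′ end means that levels are not per length, so levels of different genes are not ranked by expression.

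Kept cells had 500 or more UMIs, 300 or more genes and no more than 20% mitochondrial UMIs. Doublets called by Scrublet (scanpy 1.11.5) were counted and not removed. UMIs were summed over the fibroblasts of a library. Sums carry Poisson intervals, ratios conditional binomial intervals and shares Clopper-Pearson intervals (scipy 1.17.1). With 1 library per group there are no tests. Ratios need 30 UMIs over both libraries, and members at 0 enter list medians at a floor of 3 UMIs. The code for ratios was checked on simulated counts. TMM and size factors came from edgeR 4.0.16 and DESeq2 1.42.0.

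The members and the 29 gene lists were chosen with earlier results of these data known. Genes were named by rule: the 5 genes of the rule, per list the 3 with most UMIs and the 3 with the largest absolute log2 ratio of IL-4/C1q EV to UT EV, the first genes apart from all other libraries as the report describes (6 a side for IL-4/C1q EV and 4 for each other library; no cell over 25% of the UMIs), and the 15 genes most restricted to fibroblasts. Named in addition, after their values were seen, were Acta2, Apod, Arg1, Ccl2, Cdh1, Hspa1a, Ifnar1, Il1r1, Il4ra, Irf7, Mki67, Plac8 and further members of the lists and of the genes apart. The alternatives that leave out the top cell of a gene, or cells with 1% of UMIs in markers of 1 other type, were also added after seeing the data. Promoters come from RefSeq on GRCm38.p6 and serve for sequence only. The files hold no coordinates. Some genes that the rule names are not reported here.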

Additional observations from a re-analysis of the deposited data

How the results depend on the processing

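No paired analysis was possible because each group is 1 library, and for the same reason no library could be left out of a group. The share of fibroblasts moved with the rule: at 1000 UMIs per cell it was 0.244%, 0.207% and 0.523% in the 3 EV libraries (UT EV first, IL-4/C1q EV last), and a rule of 10 UMIs and 4 genes gave 0.254% for IL-1a/TNFa/C1q EV. The interferon list kept its direction for IL-4/C1q EV over both other EV libraries under all alternatives run, with medians of 1.12 to 1.58 over UT EV and 1.76 to 2.41 over IL-1a/TNFa/C1q EV. For UT EV over MAPS its median of 0.27 became 0.88 with TMM factors, 1.41 after thinning, 1.90 without cells with 2 myeloid markers, 1.67 with a minimum of 100 UMIs, and -0.16 with no minimum, so its sign depends on the minimum.

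Medians that changed sign were, for IL-4/C1q EV over UT EV, those of fibrillar collagens (0.0039 thinned, 0.021 without the myeloid-marker cells), arachnoid genes (-0.22 thinned) and progenitor genes (-0.45 with no minimum). For IL-1a/TNFa/C1q EV over UT EV they were those of proteoglycans (0.45 thinned), myofibroblast genes (0.19 thinned, 0.46 without the myeloid-marker cells) and progenitor genes (-0.038 without the myeloid-marker cells, -0.22 with no minimum). For UT EV over MAPS they were those of arachnoid genes (3.93 thinned, 2.15 without the myeloid-marker cells, 1.68 at 100 UMIs) and retinoid genes (1.38, 1.16 and 0.86). The log2 ratio of Ptgds for IL-4/C1q EV over IL-1a/TNFa/C1q EV became -0.16 without the myeloid-marker cells. The cause was not tested; thinning and the myeloid filter also leave fewer counts.

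Counts of genes more than 2-fold apart depended on the minimum and the cells. For IL-4/C1q EV over UT EV they were 243 higher and 90 lower and ran from 42 to 1279 and from 20 to 1001. For IL-4/C1q EV over IL-1a/TNFa/C1q EV they were 244 and 123 (55 to 1349 and 39 to 802), for IL-1a/TNFa/C1q EV over UT EV 110 and 109 (24 to 997 and 16 to 1049), and for UT EV over MAPS 598 and 1679 (295 to 1404 and 333 to 3884). A minimum of 100 UMIs and no minimum gave the extremes of all these ranges.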
